A study of Mus musculus with 6 samples.

Results

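Antisense genes are transcribed from the DNA strand opposite to another gene, and the 200 most abundant of them in mouse brain are described here with the protein-coding genes they overlap. They were chosen from the 2959 genes that the GENCODE M21 annotation types as antisense, leaving out 1 gene, by their summed read count on their own strand over all 6 libraries. The same annotation holds 55450 genes in all. Abundance was therefore what chose these genes, and their levels are given as a description, with no test. The 3 with the lowest sums inside the list were Gm12207 with 375 counts, Gm35823 with 375 and Gm38250 with 369. Just outside it were Gm16083 with 367 counts, 2010007H06Rik with 366 and 4930500F10Rik with 363.

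The libraries came from whole mouse brain, 3 labelled wild type (WT) and 3 labelled TRMT1L KO, with genotype as the sole difference the labels give. TRMT1L is a relative of the tRNA methyltransferase TRMT1. The labels call the replicates biological, and the strain, age, sex and knockout allele are not given in the sources used here. RNA longer than 200 bases was made into TruSeq total RNA libraries, which keep RNA with and without a poly(A) tail.

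Antisense RNAs are a mixed class. Some, such as the imprinted RNAs Kcnq1ot1 and Airn, are long nuclear transcripts that silence neighbouring genes on the chromosome they come from. Others start beside a protein-coding promoter and run away from it, and many overlap a convergent gene's end and have no known function. A stranded library tells an antisense read from a sense read, but a small share of reads from a strong gene is recorded on the wrong strand, so each antisense count was set beside the count of the other strand over the same exons.

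Start regions are shown first because many of these genes began close to a protein-coding gene read the other way. RefSeq windows of 300 bases, 250 before to 50 after each annotated start (GRCm38.p6), were held for 108 of the 200 genes, in 145 windows. The 4 below contrast a lone start with 3 that lie 40 bases or fewer from a protein-coding start on the other strand. Each is written 5′ to 3′ on the antisense gene's own strand, with every CG dinucleotide in capitals. Kcnq1ot1 (chr7:143296498-143296797, minus strand) had no such neighbour within 1 kb and 9 CG. Gm13629 (chr2:66440630-66440929, plus strand) started 40 bp from Scn1a, a neuronal sodium channel gene, and had 6 CG. 2810001G20Rik (chr11:64079234-64079533, plus strand) started 16 bp from Cox10, which acts in heme A synthesis, and had 22 CG. 6330418K02Rik (chr5:138263795-138264094, plus strand) started 10 bp from BC037034 and had 28 CG.
Kcnq1ot1: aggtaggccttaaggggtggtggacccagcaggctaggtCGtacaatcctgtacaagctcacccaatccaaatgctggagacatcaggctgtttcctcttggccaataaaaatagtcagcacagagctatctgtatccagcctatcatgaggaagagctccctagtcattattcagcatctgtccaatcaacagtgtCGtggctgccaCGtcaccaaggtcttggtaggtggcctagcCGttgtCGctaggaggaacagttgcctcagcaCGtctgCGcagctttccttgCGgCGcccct
Gm13629: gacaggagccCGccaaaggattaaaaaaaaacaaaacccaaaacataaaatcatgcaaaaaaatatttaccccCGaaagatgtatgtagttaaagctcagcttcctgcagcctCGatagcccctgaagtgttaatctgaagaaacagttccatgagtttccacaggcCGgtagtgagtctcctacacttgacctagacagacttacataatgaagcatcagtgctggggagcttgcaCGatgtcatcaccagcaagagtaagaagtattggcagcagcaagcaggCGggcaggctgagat
2810001G20Rik: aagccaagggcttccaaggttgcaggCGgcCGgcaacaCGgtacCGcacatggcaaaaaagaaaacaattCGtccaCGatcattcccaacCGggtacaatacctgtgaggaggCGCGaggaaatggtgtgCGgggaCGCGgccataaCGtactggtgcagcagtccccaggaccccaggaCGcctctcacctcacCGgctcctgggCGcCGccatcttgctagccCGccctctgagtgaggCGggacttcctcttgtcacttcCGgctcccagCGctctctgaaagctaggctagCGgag
6330418K02Rik: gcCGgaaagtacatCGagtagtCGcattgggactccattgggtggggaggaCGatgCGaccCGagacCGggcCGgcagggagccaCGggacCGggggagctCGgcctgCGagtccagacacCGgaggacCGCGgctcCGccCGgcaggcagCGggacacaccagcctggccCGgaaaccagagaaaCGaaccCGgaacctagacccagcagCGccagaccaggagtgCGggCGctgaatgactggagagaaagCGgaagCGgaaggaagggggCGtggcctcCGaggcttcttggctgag

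At least as many CG as in these windows were found in 45.8%, 56.4%, 23.1% and 14.2% of all 32851 windows, in the same order. Over the antisense genes' windows, 53.8% held 15 or more CG, against 34.6% of all windows. The 76 windows of antisense genes starting within 1 kb of a protein-coding start on the other strand had a median of 25 CG, and the other 69 had a median of 11. The letters TATAAA, searched on both strands, were found in 12 of the 145 windows (8.28%) and in 13.6% of all windows. These are matches of letters in a fixed window, and windows of 1 gene can overlap.

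Counts in genes, on the strand used, ran from 31201119 to 36145961 per library. Trmt1l itself had 1034 to 1279 counts in WT and 93 to 106 in KO (KO over WT on the log2 scale -3.58, with an SE of 0.08 and an adjusted p of 6.95e-10 in edgeR). Marker genes matched brain: summed markers were 3250 to 3520 CPM (counts scaled to library size) for neurons, 376 to 485 for astrocytes and 113 to 151 for microglia, against 0.317 to 0.641 for 4 genes of other organs. Oligodendrocyte markers summed to 3160 to 3570 CPM in WT and 2680 to 3220 in KO, and choroid plexus markers to 274 to 327 in WT and 328 to 395 in KO. Blood markers ranged from 83.3 to 213 CPM. No listed marker was at 0 in all libraries. In whole tissue, fewer cells of a type and less RNA per cell cannot be told apart.

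The 200 genes held 421854 counts, 81.2% of all antisense counts, and antisense genes together held 0.253% of the counts in genes. Their distribution was steep. Kcnq1ot1 alone took 27.8% of the counts of the 200, the first 12 took 60.3%, and the median gene had a summed count of 715. In mean CPM the genes ran from 1.80 to 572 with a median of 3.49. Of the 200, 24 reached 10 CPM and 135 stayed below 5. Per kb of merged exons, the scale on which genes can be set against each other, the range was 0.279 to 21.1 CPM per kb with a median of 1.82. Exon lengths ran from 464 to 93092 bp, and 36 genes had a single exon.

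Kcnq1ot1 lies at chr7:143203458-143296549 on the minus strand, as a single exon inside Kcnq1, a potassium channel gene. Its levels were 575, 592 and 597 CPM in WT and 551, 600 and 515 CPM in KO. The groups overlapped, one KO library being the highest of all 6 and another the lowest. Kcnq1 itself had 109 counts over all 6 libraries, against 117108 for Kcnq1ot1. Because that transcript is so long, its level per kb was a moderate 6.14 CPM.

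B230334C09Rik (chr3:158067186-158076112, minus strand) was second, with 185, 207 and 203 CPM in WT and 177, 181 and 173 in KO. Every KO value lay below every WT value. It had the highest level per kb of the 200, 21.1 CPM per kb, and met the end of Lrrc40, which had 5204 counts against 38450. On its own strand it began 6779 bp beyond the end of Lrrc7, a postsynaptic density gene with 53554 counts.

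Tug1 (chr11:3639785-3649673, minus strand), a conserved long noncoding RNA, had 117, 125 and 121 CPM in WT and 116, 117 and 116 in KO. The groups touched, the lowest WT value lying within the KO range. It started 482 bp from Morc2a, an ATPase of heterochromatin silencing, in the opposite direction. Per kb both were at nearly the same level, 12.2 for Tug1 and 11.2 for Morc2a.

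4933431E20Rik (chr3:107888850-107896213, minus strand) had 92.9, 98.8 and 95.8 CPM in WT and 91.6, 93.1 and 89.5 in KO. It overlaps Eps8l3, which had 4 counts, and the start of Gstm5, a glutathione transferase gene read the other way from 392 bp away, which had 12177. Dlx6os1 (chr6:6820189-6871592, minus strand), also known as Evf2 and tied to GABAergic interneurons, spans the homeobox gene Dlx6. Its levels were 35.4, 34.2 and 48.8 CPM in WT and 41.6, 46.8 and 36.3 in KO, all KO values lying within the WT range. Dlx6 had 1308 counts against its 8300.

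A830082K12Rik (chr13:78198017-78279391, plus strand), head to head with the nuclear receptor gene Nr2f1, had 22.5, 27.3 and 26.3 CPM in WT and 22.3, 22.6 and 22.8 in KO. The KO libraries lay at the foot of the WT range. Zfhx2os, which meets the end of the zinc finger homeobox gene Zfhx2, had 22.4, 21.6 and 17.6 CPM in WT and 17.7, 14.3 and 24.8 in KO, the KO libraries holding both the lowest and the highest value. The other 5 of the first 12 were A830036E02Rik beside the keratin gene Krt12, E130307A14Rik, whose start is 111 bp from the DNA polymerase gene Rev3l, Rab10os, Gm26782 beside Tep1, and 6330403L08Rik beside the growth factor gene Pdgfa. Their summed counts ran from 3629 to 10144.

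**Figure D1:**
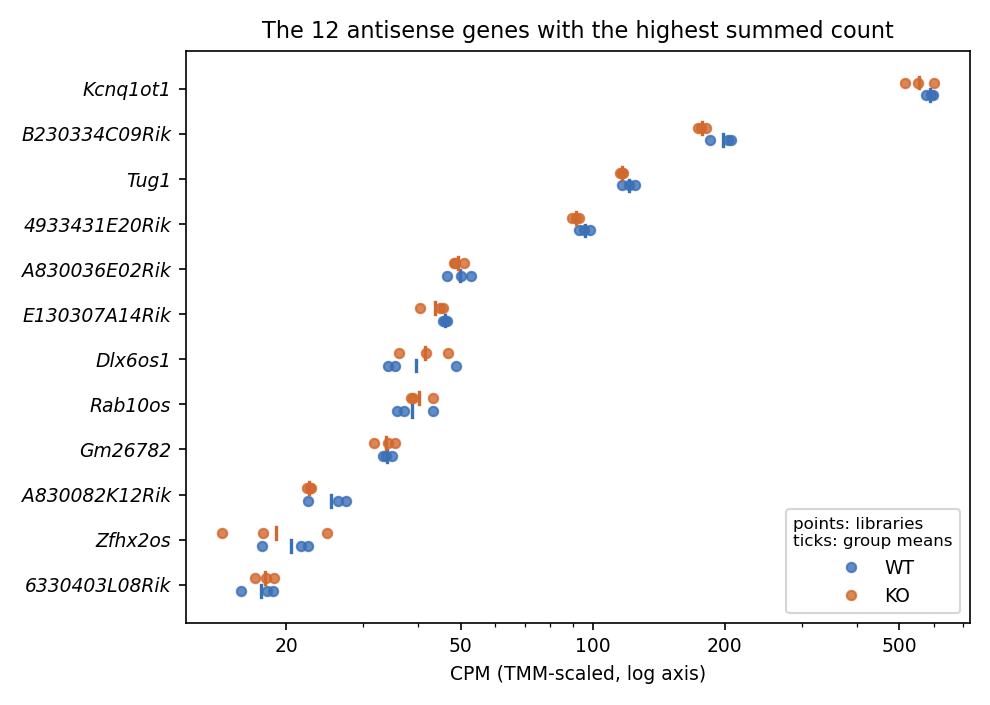
CPM (log axis) of the 12 antisense genes with the highest summed count, 1 point per library (3 WT, 3 KO), with ticks at the group means. Kcnq1ot1 lies between 515 and 600 CPM, and B230334C09Rik is the gene of the 12 whose KO points all lie below its WT points.

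After these 12, the genes with the highest level per kb were mostly short. Gm16008 had 10.7 CPM per kb, Tmem147os 9.15, Gm13629 8.90, AC109619.1 8.67 and Gm14286 8.66, the last with 464 bp of exons. Tmem147os starts 39 bp from Tmem147 and spans the sperm glycolysis gene Gapdhs, which had 5 counts. Levels were steady between libraries: the ratio of the highest to the lowest library had a median of 1.34. It passed 2 in 5 genes, named after their values were seen: Gm42756 (3.25), Gm4221 (2.23), Gm37885 (2.19), 9330111N05Rik (2.10) and C130021I20Rik (2.06). In Gm42756 the spread was within WT, with 2.36, 7.69 and 5.35 CPM.

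Of 9 listed transcripts of imprinted or X-inactivation loci, 4 are typed antisense and 2 were among the 200. Kcnq1ot1 is described above. Airn (chr17:12741311-12860136, plus strand), the RNA that silences the growth factor receptor gene Igf2r, had 12.5, 10.5 and 11.1 CPM in WT and 10.5, 15.8 and 11.7 in KO. One KO library was high and the rest overlapped. Its body lies against both Mas1 (1959 counts) and Igf2r (22772 counts), and Airn itself had 2467. Nespas and Tsix ranked 297th and 510th among antisense genes, with 234 and 98 counts.

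Among 20 listed transcripts beside developmental regulators, 13 are typed antisense and 4 were among the 200: Dlx6os1, Zfhx2os, Emx2os and Dlx1as. Emx2os starts 263 bp from Emx2, a homeobox gene of the cortex, and had 3.44, 4.37 and 4.38 CPM in WT and 3.28, 4.25 and 2.99 in KO. Dlx1as lies against Dlx1 and Metap1d and had 2.64, 2.74 and 4.10 CPM in WT and 3.51, 3.59 and 2.60 in KO. In both genes the groups overlapped. None of 8 listed microRNA host genes is typed antisense here. A single mature microRNA of RefSeq, mmu-miR-1895, lay within one of the 200 (Gm26691) on the same strand, and 4 more lay in 2 of them on the opposite strand. The antisense type also takes in Trmt61b, the symbol of a mitochondrial tRNA methyltransferase, with 6.76, 5.87 and 6.32 CPM in WT and 6.36, 6.89 and 6.64 in KO.

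Protein-coding partners were found for most of the list. A gene body on the other strand overlapped 186 of the 200 (93%), with 184 distinct partners, and 35 of the 200 overlapped several. The share was 92.2% among the other 2758 antisense genes. By position, 73 lay head to head with the partner, 60 tail to tail, 43 inside it and 10 around it, and 14 had none. Exons overlapped in 159. Typical exon overlap was short where the pair lay head to head, with a median of 232 bp, and 404.5 bp where they met at their ends.

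A start within 1 kb of a protein-coding start on the other strand was found for 93 of the 200 (46.5%) and for 533 of the other antisense genes (19.3%). Of these 93, 42 lay beside the start of their own partner and 51 beside another gene. Of the 14 without a partner, 10 had such a neighbour, so they run away from a coding gene without overlapping it. The starts were within 100 bp in 23 genes. These shares describe annotated positions and were not tested.

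Reads of the other strand over the same exons exceeded the gene's own count in 68 of the 200, and were fewer in 132. At the median the other strand had 0.356 times the gene's own count, and the own strand held more than 90% of the reads in 71. The own-strand count chose the genes, so these ratios are descriptions. The median ratio was 0.255 head to head, 0.870 inside the partner and 0.899 tail to tail. Without a partner it was 0.00306.

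Reads on the other strand were counted in 3472 protein-coding genes with no other annotated gene within 1 kb. Their median leak, the share of reads recorded on the other strand, was 0.159% ± 0.017 in WT and 0.152% ± 0.0165 in KO (SD, n = 3 libraries each). The difference of -0.00742 percentage points was within the spread (two-sided exact permutation test, p = 0.7, where 3 against 3 cannot go below 0.1). Between isolated genes the leak varied far more than between libraries, its 90th percentile being 2.31% to 2.56%. With no other annotated gene within 10 kb, the median leak was 0.113% in WT and 0.109% in KO. Whether RNA absent from the annotation adds to the leak was not tested.

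Applied to the reads of the other strand, the median leak accounted for a median of 0.0561% of an antisense gene's count. It passed 1% in 15 of the 200, was highest at 6.11%, and reached 50% in 0. With the 90th-percentile leak the median was 0.885%, 22 genes reached 10%, 7 reached 25% and 1 reached 50%. Of the 2165 other antisense genes with a count, 327 (15.1%) reached 50% already at the median leak. The ranking on own-strand counts bears on that contrast, since it removed genes with few own-strand reads.

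9530082P21Rik, named as the highest by this measure, meets the end of Flywch1. Its own counts were 86, 87 and 67 in WT and 58, 50 and 106 in KO, beside 2561 to 3199 on the other strand in each library. Its spill-over share was 6.11% at the median leak. At the 90th-percentile leak, 96.7% of its 454 counts would be spill-over. No other gene of the 200 reached 50% at that leak.

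High shares also belonged to genes lying across strong neighbours. B130046B21Rik, against the AMP kinase subunit gene Prkag1, had 565 own and 7694 opposite counts, and a share of 2.13% at the median leak. 4930488L21Rik, against the G protein gene Gnao1, had 924 and 11824 (2.00%). Gm45767, against the myelin gene Pllp, 4833422C13Rik, against Ssbp2, 9130221H12Rik, against the kinase gene Gsk3a, and Etohd2, against Gm49354, had shares of 1.55% to 1.82%. At the 90th-percentile leak these 6 reached 24.5% to 33.7%.

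At the other end, overlapping a gene body did not mean overlapping reads. Gm17116, Gm41361 and Gm26935 had no read on the other strand. Gm16008 had 3 opposite reads beside 2905 of its own, over Tnfrsf18, an immune receptor gene with 8 counts. Tmem147os had 4 beside 2656, Gm15941 had 3 beside 1639, Gm15879, over Dnase1, had 1 beside 836, and Gm49130, over the cardiac myosin gene Myh6, had 1 beside 506.

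**Figure D2:**
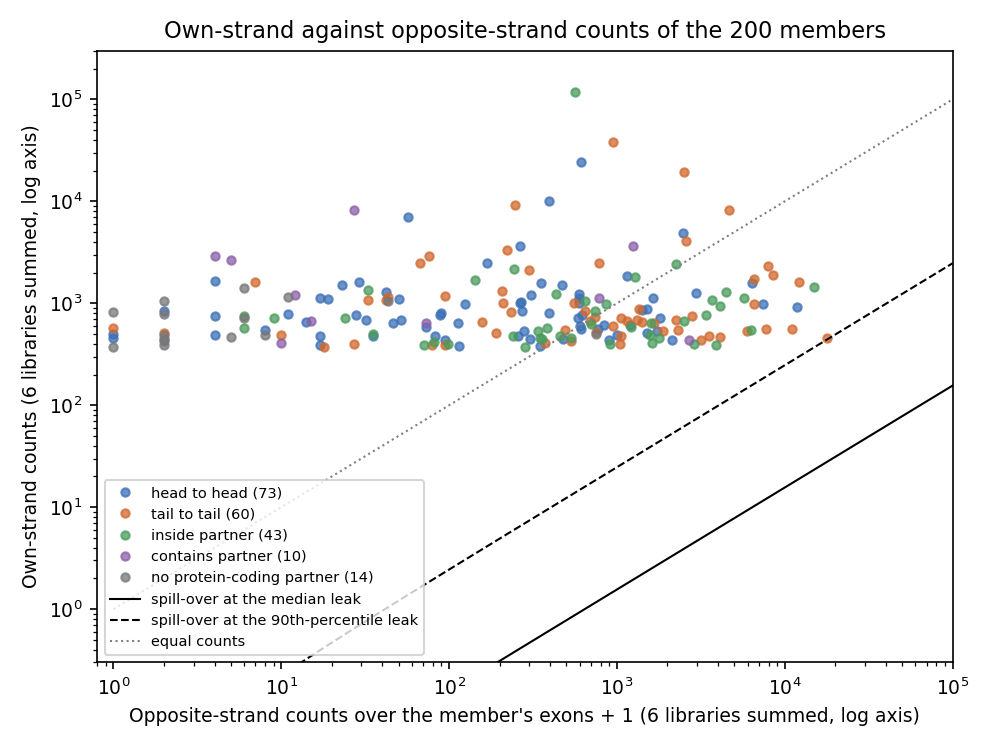
Summed counts on the own strand against the opposite strand over the same exons (plus 1), both on log axes, 1 point per antisense gene coloured by position. Every point lies above the solid line of median spill-over, and 9530082P21Rik, with 17757 opposite and 454 own counts, lies at the dashed line of the 90th-percentile leak.

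Neighbours on the own strand were counted as well. Another annotated gene on the same strand overlapped 30 of the 200, and 4 lay wholly inside one, named after their positions were seen: Gm15941 in Ncald (53450 counts), Gm12207 in Skp1a (43395), Gm15859 in Hmox2 (9189) and Gm26935 in Tmem147os. Of the 200, 23 began within 5 kb beyond the end of a protein-coding gene on the same strand. Reads in several same-strand genes are not in these counts. Whether other reads of the longer gene enter them was not tested.

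Against partners with enough reads to be tested, antisense genes were mostly the lower of the pair. Both could be set per kb in 165 pairs. The partners of 21 more had too few reads, and those pairs are in none of these figures. The antisense gene was lower in 131 and higher in 34, with a median ratio of 0.258, and 40 were below 0.1 times the partner. By position the median ratio was 0.213 head to head, 0.280 inside the partner, 0.317 tail to tail and 2.52 where the antisense gene contained the partner. Among these 165 pairs, the lowest ratio was that of Gm26703, at 0.998 CPM per kb against 504 for Sparcl1, a secreted astrocyte protein. The highest was 47.3 in Kcnq1ot1, at 6.14 against 0.130 for Kcnq1. Gm16894 over the decoy receptor gene Il1r2 (ratio 29.2) and Gm31749 over Kif22 (26.8) followed it.

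No antisense gene of the list was called between KO and WT. In the edgeR quasi-likelihood fit over 21237 genes, 0 of the 200 passed an adjusted p of 0.05, and the smallest adjusted p was 0.576. Over all genes tested 0.00942% were called. At an unadjusted p under 0.05 there were 9 of the 200 (4.5%), 4 higher and 5 lower in KO, against 7.92% of all genes (4.54% higher and 3.38% lower). DESeq2 gave 0 calls among the 13 that received an adjusted p, and 5 of the 200 at an unadjusted p under 0.05, against 5.46% of all genes. It called 0.281% of all genes with an adjusted p. With no filter on low counts edgeR called 2 of the 200, Gm37885 and Gm4221, and 0.8% of all genes. Of the partners tested with the filter, edgeR called 0.

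Log2 fold changes of the 200 ran from -0.61 to 0.48, with a median size of 0.09. The median was -0.02, against 0.00013 for all genes, and 119 were lower in KO (59.5%, against 49.9% of all genes). The direction of the median rested on 1 library, since without the second KO library it was 0.0111. The other 511 antisense genes tested had a median of -0.05 and 0 calls in edgeR, with 13 at an unadjusted p under 0.05. A log2 fold change beyond 0.5 in size was seen in 1 of the 200, Gm4221, and in 3.23% of all genes. In each library the 200 held 0.2074%, 0.213% and 0.2095% of the counts in genes in WT and 0.2022%, 0.2016% and 0.1998% in KO, and the groups did not overlap. Without Kcnq1ot1 the shares were 0.1495% to 0.1535% in WT and 0.1425% to 0.1482% in KO. In the same libraries the choroid plexus marker sums, at 274 to 327 CPM in WT and 328 to 395 in KO, did not overlap either, and those of oligodendrocytes did. Their part in these shares was not tested.

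**Figure D3:**
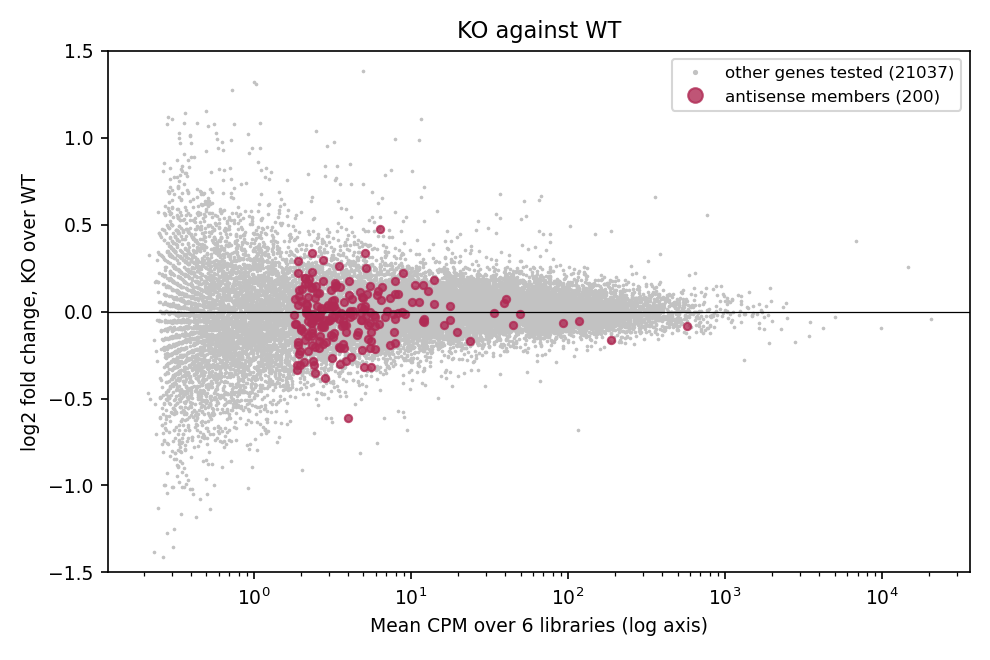
Log2 fold change, KO over WT, against mean CPM (log axis) for 200 antisense genes and the 21037 other genes tested, of which 9 lie outside the axis. The antisense genes lie between -0.61 and 0.48.

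The groups did not overlap in 22 of the 200 (11%), 8 with KO higher and 14 with KO lower. Over all genes tested the groups did not overlap in 14.4%, 7.46% higher and 6.97% lower. The share among the 200 was below that of all genes, and above it without a filter on low counts (11.5% against 10.8%) and in the unstranded column (15% against 13.8%), so these genes are described for their values alone. Below are the 5 higher in KO with the smallest unadjusted p and 4 of the corresponding 5 lower in KO, which in edgeR had adjusted p-values of 0.576 to 0.659.

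Gm4221, head to head with the zinc finger gene Zfp608 on chromosome 18, had 4.42, 5.30 and 4.68 CPM in WT and 3.42, 2.38 and 3.57 in KO. Its log2 fold change was -0.61 (SE 0.16). Zfp608 had a log2 fold change of 0.01. A230077H06Rik, head to head with Vstm2b, had 5.11, 5.77 and 5.80 CPM in WT and 4.60, 4.13 and 4.65 in KO, a log2 fold change of -0.32 (SE 0.12), while Vstm2b had 0.14 (0.08 without the second WT library and 0.25 without the third). In B230334C09Rik the log2 fold change was -0.16 (SE 0.05) and in Lrrc40 -0.0044.

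Gm11266 lies inside the transcription factor gene Nfib and had 2.45, 3.13 and 2.77 CPM in WT and 2.36, 1.87 and 2.27 in KO, a log2 fold change of -0.35 (SE 0.16). Nfib had -0.07, with its own groups not overlapping. At 505 counts over 6 libraries, Gm11266 is among the more thinly covered genes of the list.

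Among those higher in KO, A030001D20Rik, inside the endothelial gene Rasip1, had 4.78, 3.80 and 4.92 CPM in WT and 6.36, 5.50 and 5.26 in KO, a log2 fold change of 0.34 (SE 0.13), or 0.11 from counts without regard to strand. Gm45606, head to head with the amino acid transporter gene Slc43a2, had 8.13, 9.06 and 7.69 in WT and 9.78, 9.12 and 10.1 in KO, a log2 fold change of 0.22 (SE 0.10). Gm2415 meets the end of the integrin gene Itga9 and overlaps the start of the phosphatase gene Ctdspl, 2 bp from its own. It had 14.3, 12.1 and 13.2 CPM in WT and 15.3, 14.6 and 15.02 in KO, a log2 fold change of 0.18 (SE 0.08). The gap between the groups was narrow in Gm45606, 9.06 against 9.12 CPM.

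Gm9917, against the tumour suppressor gene Rassf1, had 1.81, 2.36 and 2.04 CPM in WT and 2.39, 2.82 and 2.60 in KO, a log2 fold change of 0.33 (SE 0.16). Gm11767 has no partner and starts 65 bp from Baiap2, a synaptic scaffold gene. It had 2.72, 3.29 and 3.53 CPM in WT and 3.86, 3.62 and 3.93 in KO, a log2 fold change of 0.26 (SE 0.14), or 0.16 without the first WT library. Neither Gm9917 nor Gm11767 passed an unadjusted p of 0.05, with 0.0569 and 0.0801 in edgeR.

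**Figure D4:**
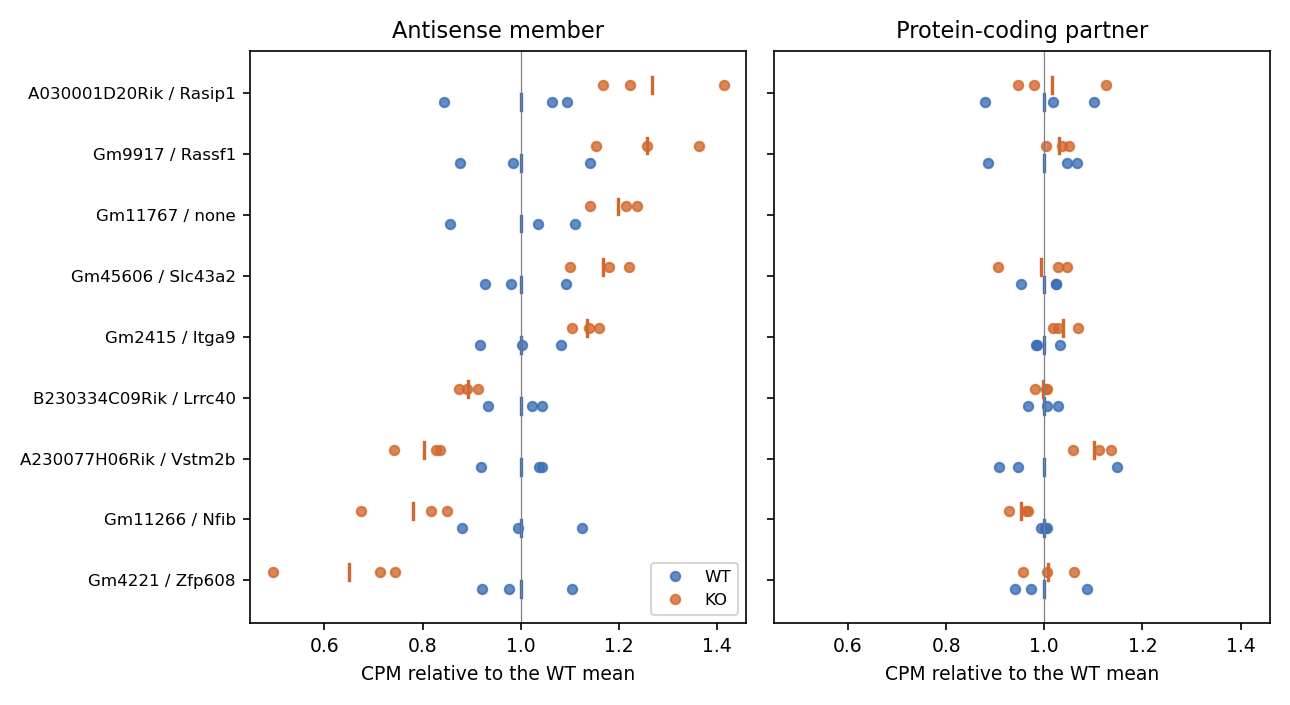
CPM relative to the WT mean for 9 antisense genes named for non-overlapping groups (left) and their partners (right), 1 point per library, with ticks at group means. Gm11767 has no partner, so its row on the right is empty. On the left WT and KO points are apart by selection, as in Gm4221 with 4.42 to 5.30 CPM in WT and 2.38 to 3.57 in KO, and on the right most partners overlap.

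Gm37885, inside the calpain gene Capn2 and named after its values were seen, rested on 1 library. It had 5.80, 4.75 and 5.32 CPM in WT and 6.16, 10.4 and 5.59 in KO, so the second KO library alone was high and the groups overlapped. With all libraries its log2 fold change was 0.48, with an SE of 0.20 and an adjusted p of 0.622 in edgeR, and without that library it was 0.15. Among the first 12, log2 fold changes apart from B230334C09Rik ran from -0.17 in A830082K12Rik (SE 0.08) to 0.07 in Dlx6os1 (SE 0.13). Without the second WT library A830082K12Rik had -0.11. Kcnq1ot1 had -0.08 (SE 0.05, edgeR adjusted p = 0.727) and Tug1 had -0.05 (SE 0.04, edgeR adjusted p = 0.789). Kcnq1ot1 had -0.14 without the second KO library and -0.03 without the third, and Tug1 had -0.03 without the second WT library. The developmental and imprinted RNAs Airn, Emx2os and Dlx1as had 0.15 (SE 0.14), -0.21 (SE 0.16) and 0.03 (SE 0.19). With 1 library left out, Airn ranged from -0.03 (without the second KO library) to 0.27 (without the first KO library). Emx2os ranged from -0.37 to -0.11, without the second and the third KO library, and Dlx1as from -0.08 to 0.27, without the first and the third WT library.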

How the data were processed

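Per the submitters' processing notes, reads were handled with cutadapt 1.9.1 and STAR 2.7.0f. The genome build and annotation are not given in the sources used here. The authors deposited, for each of the 6 libraries, raw read counts per gene in 3 columns: without regard to strand, and on each of the 2 strands. The 55450 gene identifiers are those of GENCODE M21 on GRCm38, which gave gene types and positions. The stranded column 4 was used, and column 3 gave the opposite strand. Reads in several same-strand genes and multi-mapping reads are not in these counts, and the 4 summary rows were left out.

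Counts were filtered with filterByExpr, scaled by TMM and tested with edgeR 4.0.16 (quasi-likelihood, genotype only, Benjamini-Hochberg over 21237 genes) in R 4.3.3, with DESeq2 1.42.0 as an alternative. CPM values are TMM-scaled. The fit was also run on simulated counts, and the outcome is not reported here. A partner is the protein-coding gene on the other strand with the most bases over the gene's exons. Leak is column 3 over columns 3 and 4 in isolated genes with at least 1000 summed counts. The labels call the 3 libraries a group biological replicates and name no animals. The p-values therefore set the group difference against the spread between these libraries.

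Named genes were the 12 with the highest summed count, the 8 with the highest CPM per kb, the 5 higher and 5 lower with the smallest unadjusted p among non-overlapping groups, those on the lists, the 8 highest and 8 lowest by spill-over share and those beside the rank threshold. Of these, 2 antisense genes and their partners are not reported here. The antisense genes and the lists were chosen with earlier results of these data known. Alternatives were other scalings, filters, columns, leaks and overlaps, DESeq2, a replicate block and leaving out each library.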

Additional observations from a re-analysis of the deposited data

How the results depend on the processing

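Among the 200 antisense genes, edgeR called 2 without a filter on low counts, Gm37885 (log2 fold change 0.48, adjusted p = 0.0312) and Gm4221 (-0.61, adjusted p = 0.015), where it called 298 of 37245 genes (0.8%) against 2 of 21237. It called 0 under each other setting run, as DESeq2 did, which called 25 of 8885 genes. Partner calls were 0 under each. Numbered replicates did not deviate together (correlations 0.0402, -0.0314 and -0.0581), and with the replicate block 0 of the 200 were called and the median log2 fold change was -0.0247. Leaving out each library moved that median from -0.0456 to 0.0111, above 0 without the second KO library, and the other settings gave -0.0362 to -0.0187. Groups did not overlap in 29 to 48 of the 200 with a library left out (23.1% to 26.2% of all genes) and in 21 to 30 otherwise (10.8% to 15.7% of all genes). The share among the 200 was above that of all genes without a filter (11.5% against 10.8%) and in the unstranded column (15% against 13.8%), and below it under each other setting run. With total-count scaling the median of all genes was -0.00991, against 0.000133 with TMM. The count at 50% spill-over went from 0 to 1 at the 90th-percentile leak and was 0 otherwise. The leak difference was -0.0279 percentage points pooled, -0.00396 with 10 kb isolation, and -0.016 to 0.00211 with a library left out, positive without the first WT (0.000976) or second KO library (0.00211). Partners by exon overlap numbered 159, and by 100 bp of gene body 179.

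For 32 named genes, 416 comparisons with an alternative left 387 on the same side, put 2 past the threshold (Gm37885 and Gm4221, above) and turned the sign of 27. With a library left out, log2 fold changes ran from -0.0638 to 0.0303 for A830036E02Rik, -0.0202 to 0.257 for Dlx6os1, -0.00357 to 0.14 for Rab10os, -0.0464 to 0.0327 for Gm26782, -0.36 to 0.0514 for Zfhx2os, -0.0384 to 0.0817 for 6330403L08Rik, -0.0341 to 0.269 for Airn and -0.0847 to 0.266 for Dlx1as. Among partners they ran from -0.0574 to 0.0985 for Rasip1, -0.0483 to 0.0522 for Slc43a2, -0.0359 to 0.0908 for Rassf1, -0.0307 to 0.0755 for Zfp608 and -0.0267 to 0.0167 for Lrrc40 (0.00121 without a filter). The cause of these turns was not tested. The median summed count of the 200 was 715, and the part of depth in these results was not tested.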
